A study of Mus musculus with 6 samples.

Results

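The potassium, sodium and chloride channel genes were read in 2 skeletal muscles of normal adult female C57Bl/6 mice aged 6 months: the superficial masseter, which closes the jaw, and the tibialis anterior, a limb muscle that flexes the ankle. Each muscle was represented by 3 samples, numbered 1 to 3 in both, with 1 short-oligonucleotide array per sample. The mice carried no treatment or genetic change that the labels name, and it is not stated if each sample was 1 mouse or if animals were pooled. The question was which of these channel transcripts differ between masticatory and limb muscle. A probe set, a group of short probes for 1 transcript, was a member when its only gene symbol began with Kcn, Scn or Clcn and its mean signal over the 6 arrays was at least 30. Of 22626 probe sets that are not controls, 121 carried such a symbol and 45 reached that level. These 45 read 36 genes, of 12393 genes named by the array. The member closest to the limit was Scnn1b, with a mean signal of 30.2, and the closest probe set below it was Kcnj9, with 29.6. For 46 further genes with these prefixes no probe set reached 30.

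As background, the excitability of a muscle fibre rests on a division of labour among these proteins. Voltage-gated sodium channels drive the upstroke of the action potential, voltage-gated potassium channels (Kv) repolarise the membrane, and inward rectifiers (Kir) together with the chloride channel ClC-1 hold it near its resting level. In skeletal muscle chloride carries most of the resting conductance, and loss of ClC-1, encoded by Clcn1, causes myotonia. The prefixes also take in proteins with other roles. Among these are the chloride-proton exchangers of endosomes and lysosomes (Clcn3 to Clcn7), the epithelial sodium channel (Scnn genes) and Scnm1, a splicing protein that is no channel.

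Signals are the authors' linear intensities. They do not rank transcripts of different genes, because each probe set has its own brightness, so only the same probe set is compared between muscles. Each difference is the masseter's mean log2 signal less that of the tibialis anterior, ± limma's standard error (SE), with n = 3 per muscle, and p-values are adjusted over all 13576 probe sets tested. Skeletal muscle markers were high in all samples. The mean log2 signal of 12 skeletal muscle genes was 13.59 to 13.92 on the masseter arrays and 14.01 to 14.05 on the limb arrays. At an adjusted p under 0.05, 2 of them were lower in the masseter: Myh4 (-1.47 ± 0.14) and Actn3 (-0.88 ± 0.15). Of 10 slow fibre genes 3 were lower, Car3 (-1.89), Myl2 (-3.87) and Myl3 (-5.91), and 0 higher. Over all probe sets tested 0.619% were lower at that limit. The part of fibre type in the results below was not tested. Masseter 1 stood apart from the other arrays. It alone had 52 probe sets at a signal of at least 100 and at least 4 times the highest of the other 5 arrays, against 2 such probe sets in tibialis anterior 3 and 0 in each of the remaining arrays. RNA length, read as the 3' over 5' signal of the Gapdh control probes, gave a ratio of 2.66 ± 0.23 for masseter arrays and 1.94 ± 0.11 for limb arrays (SD, n = 3 each). The two-sided exact permutation p of 0.1 is the lowest possible with 6 arrays split evenly. For the Actb control the ratio was 2.96 ± 0.34 and 2.70 ± 0.11 (exact permutation p = 0.3). The part of RNA length in the results below was not tested. In whole muscle, fewer cells of a type and less RNA per cell cannot be told apart.

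No channel probe set passed the threshold of 0.05 on limma's adjusted p. Of the 42 members that passed the filter on low signal and were tested, 0 were higher and 0 were lower in the masseter, where 1.18% of all probe sets tested passed in either direction (0.560% as higher and 0.619% as lower). The smallest adjusted p was 0.204, for Clcn3. At an unadjusted p under 0.05 there were 5 members, or 11.9%, against 13.1% of all probe sets tested, and paired SAM, the test named in the study's design text, also called 0. The 3 arrays of one muscle lay wholly apart from those of the other for 8 of the 42 members, or 19.0%, against 17.8% of all probe sets tested. For 14 members, or 33.3%, the sign was the same in all 3 numbered pairs, against 35.0%. These shares lie near the background, so they set the channel genes apart from other genes in neither count. The median difference was 0.11 over the 42 members and 0.02 over all probe sets tested. In pairs 1, 2 and 3 the members' median was -0.14, 0.16 and 0.40.

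**Figure D1:**
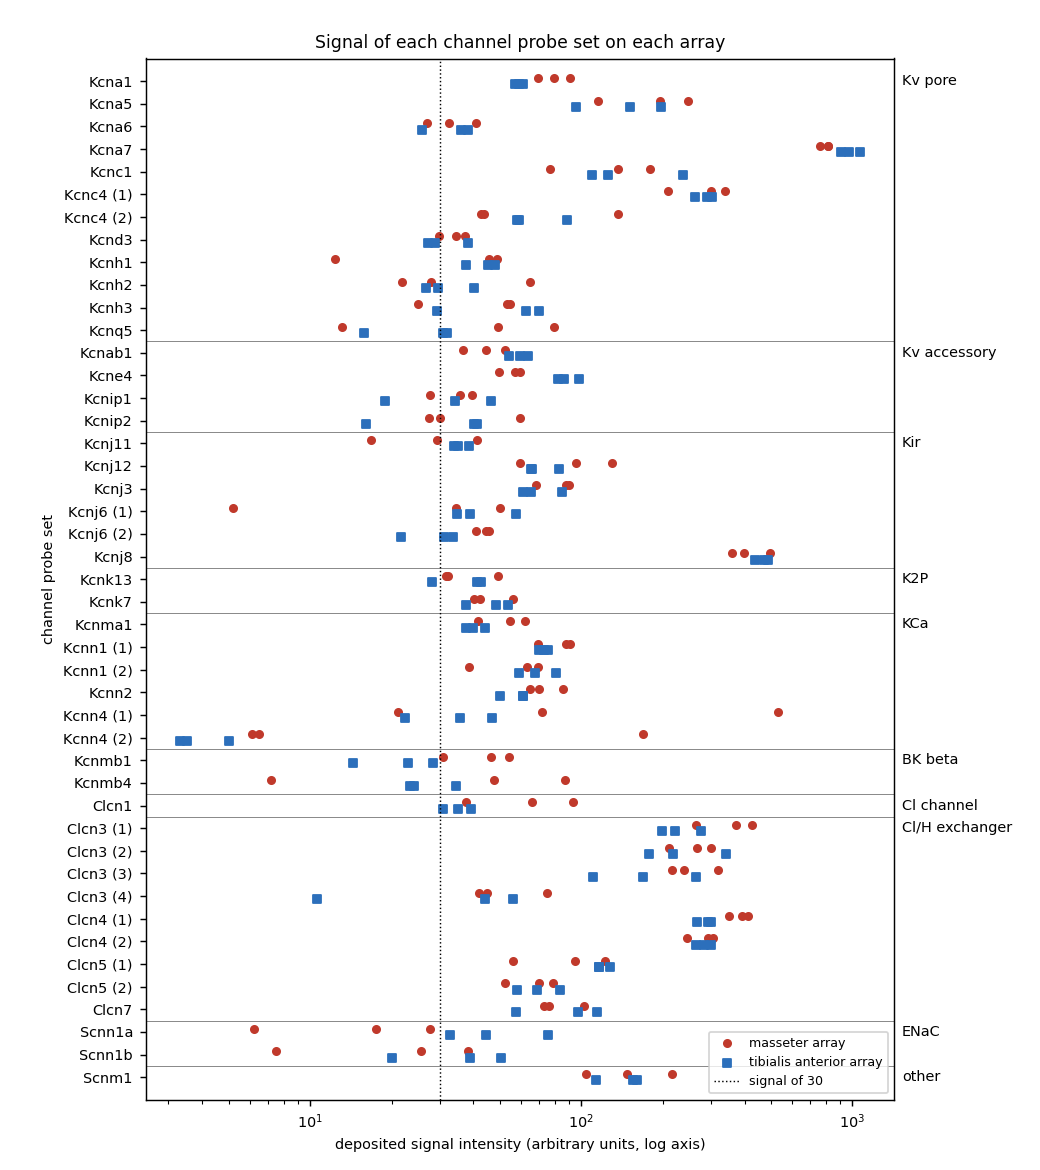
Deposited signal of each of the 45 channel probe sets (rows, grouped by family) on the 3 masseter arrays (red circles) and the 3 tibialis anterior arrays (blue squares), on a log axis in arbitrary units; a number in brackets orders the probe sets of a gene by mean signal. Mean signals run from 30.2 to 889.6, and in most rows the arrays of both muscles overlap.

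Among the Kv pore subunits, 12 probe sets of 11 genes were measured, with 5 differences above 0 and 7 below. The brightest probe set of all members was that of Kcna7, a delayed-rectifier subunit known in skeletal muscle and heart. It read 815.6, 813.2 and 761.5 in masseter 1, 2 and 3 and 907.1, 1069.8 and 970.5 in the limb muscle. Each masseter array lay under each tibialis anterior array, by a small margin. The difference of -0.30 ± 0.14 did not pass (adjusted p = 0.414), and its unadjusted 95% interval of -0.62 to 0.02 excludes a difference as large as 2-fold.

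Kcna5, a subunit of delayed rectifiers in heart, smooth muscle and skeletal muscle, read 115.1, 195.2 and 248.5 in masseter 1, 2 and 3 and 95.6, 151.5 and 197.3 in the tibialis anterior. The masseter was the higher in each numbered pair, while the arrays of the 2 muscles overlapped because the signal varied more among numbers than between muscles (0.32 ± 0.17, adjusted p = 0.495). In fits that do not use the numbers it was 0.037 without tibialis anterior 1 and 0.63 without masseter 1. Kcna1, a subunit of nerve axons among other places, read 90.6, 69.5 and 79.4 in the masseter and 61.2, 59.1 and 56.8 in the tibialis anterior. The 2 groups did not overlap, yet the difference of 0.43 ± 0.24 did not pass (adjusted p = 0.508). Of the nerve and Schwann cell list, 8 of 16 genes were tested and 0 passed in either direction. Their summed signal was 1332.8 to 1441.8 on the masseter arrays and 898.3 to 1052.3 on those of the tibialis anterior, and no tested gene was at 0, the lowest signal being 22.4. The myelin genes Mbp and Pmp22 are the brightest of the list and differed by 0.80 and 0.61, and Mag, S100b and Cnp by 0.68, 0.57 and 0.39. Ngfr, Sox10 and the axonal gene Stmn2 differed by -0.52, -0.20 and -0.13. None passed the threshold, and the list's median difference was 0.48. The part of nerve tissue in the Kcna1 values was not tested.

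The Kv3 genes, whose channels open and close fast, had 3 probe sets, all with a small difference below 0 that did not pass. Kcnc1 read 76.7, 136.6 and 179.5 in the masseter and 237.8, 109.5 and 125 in the tibialis anterior, so both the lowest and the highest value came from a sample numbered 1. Its difference of -0.26 ± 0.38 turned to 0.42 without pair 1. The brighter probe set of Kcnc4, the Kv3.4 subunit, read 208.7, 300.1 and 339 against 263.4, 303.9 and 291.7, with a difference of -0.05 ± 0.18 and an interval of -0.45 to 0.36. The dimmer probe set of Kcnc4 gave -0.08 ± 0.41. Kcnh1, a member of the ether-a-go-go family, had a difference of -0.52 ± 0.50 that came from masseter 3 at 12.3, with the other 5 arrays between 37.5 and 48.9. Without pair 3 the value was 0.16. Kcna6, Kcnd3, Kcnh2, Kcnh3 and Kcnq5 had mean signals under 50, and their adjusted p-values lay between 0.788 and 0.999.

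Of the 4 Kv accessory subunits, Kcne4 had the most even separation. Kcne4, a single-pass subunit that dampens several Kv channels, read 56.9, 59.2 and 49.6 in the masseter and 86.3, 82.2 and 98 in the tibialis anterior. The groups did not overlap and all 3 pairs had the same sign. The difference of -0.69 ± 0.24 had an unadjusted interval of -1.24 to -0.13 and did not pass (adjusted p = 0.267). With 1 pair or 1 array left out it stayed between -0.79 and -0.54. Kcnab1, a cytoplasmic beta subunit, was also lower on every masseter array, at 44.5, 52.4 and 36.7 against 63.8, 54 and 59.2 (-0.42 ± 0.30, adjusted p = 0.620). Kcnip1 and Kcnip2, calcium-binding partners of Kv4 channels, had differences of 0.13 ± 0.44 and 0.29 ± 0.45.

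The inward rectifiers gave 6 probe sets of 5 genes, 3 with a difference above 0 and 3 below. Kcnj8, the pore of the ATP-sensitive channel of blood vessel walls, read 399.4, 496.9 and 358.1 in the masseter and 490.2, 438.4 and 473.7 in the tibialis anterior. The arrays overlapped, and the interval of the difference ran from -0.57 to 0.22 (-0.17 ± 0.17, adjusted p = 0.746). Kcnj11, the pore of the ATP-sensitive channel of the muscle fibre itself, was read near the filter level, at 29.4, 16.7 and 41.1 against 38.6, 35 and 34 (-0.40 ± 0.45, adjusted p = 0.786), and differed by -0.043 without masseter 2. Kcnj12, a Kir2 subunit of the resting conductance, read 59.5, 95.9 and 129.5 against 65.4, 65.8 and 82.4 (0.35 ± 0.25, adjusted p = 0.613), and gave 0.094 without masseter 3. Its partner Kcnj2 was no member, since its only probe set had a mean signal of 4.92. Kcnj3, a subunit of G-protein-gated rectifiers, differed by 0.22 ± 0.23. The 2 member probe sets of Kcnj6, another such subunit, pointed in opposite directions. One gave -1.04 ± 0.65, resting on a signal of 5.2 in masseter 2 (-0.04 without that array). The other read 45.5, 44.4 and 40.8 in the masseter and 31.1, 33.5 and 21.7 in the tibialis anterior (0.62 ± 0.38, adjusted p = 0.559).

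Two-pore channels, which leak potassium at rest, were read by 1 probe set each of Kcnk7 and Kcnk13. Both were dim, with mean signals of 46.4 and 37.6, and both differed by 0.01 or less in size, with intervals of -0.72 to 0.70 and -0.85 to 0.86.

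**Figure D2:**
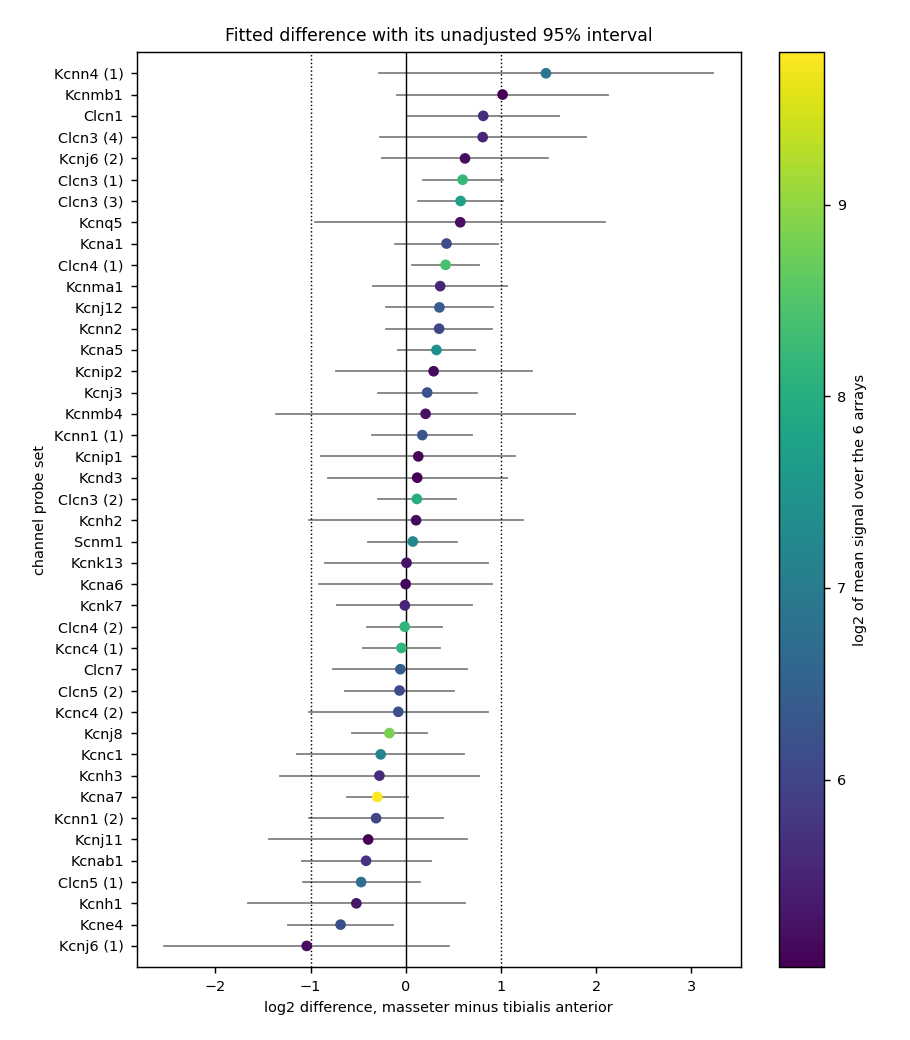
Fitted log2 difference (masseter minus tibialis anterior) of the 42 tested channel probe sets, with bars for the unadjusted 95% interval and colour for the log2 of the mean signal; dotted lines mark a 2-fold difference. Intervals of 5 probe sets leave out 0, and 18 intervals lie wholly inside 2-fold.

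Calcium-activated potassium channels held the greatest difference of all members, and it came from 1 array. Kcnn4, the intermediate-conductance channel known from red blood cells, lymphocytes and the fluid-secreting cells of salivary glands, read 530.6, 21.1 and 71.7 in masseter 1, 2 and 3 and 35.8, 47 and 22.3 in the tibialis anterior. Masseter 1 was far above the rest, and masseter 2 was the lowest of the 6. The fitted difference was 1.47 ± 0.77 (adjusted p = 0.476). Without masseter 1 it was 0.22 (adjusted p = 0.931), and without pair 2 it was 2.79 (adjusted p = 0.00674), the only call of a channel probe set in any alternative. The other Kcnn4 probe set, too dim on average for the test, read 169.4 in masseter 1 and between 3.3 and 6.5 on the other 5 arrays.

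The salivary gland list, of which 9 of 21 genes were tested and 2 passed as higher in the masseter, also peaked in masseter 1. Over all probe sets tested 0.560% passed as higher. On masseter arrays 1, 2 and 3 its log2 signal averaged 11.49, 8.75 and 6.74, and on the limb muscle arrays 8.05, 6.90 and 6.02. The summed signal was 62255.9, 8233.9 and 3411.5 in the masseter and 2610.9 to 6129.1 in the tibialis anterior. The list's median difference was 2.59, while Smr2 and Krt18 differed by -0.64 and -0.21. Smr2 read 1010.4, 1185.4 and 2123.3 in the masseter and 2548, 2063 and 1848.5 in the tibialis anterior. It was thus lowest in masseter 1, and the sums of masseter 3 and tibialis anterior 3 rest largely on it. No tested gene of the list was at 0, the lowest signal being 3.6. Masseter 1 was the highest array for the list and for both Kcnn4 probe sets. Masseter 2 was second for the list and the lowest for the brighter Kcnn4 probe set. For the dimmer Kcnn4 probe set masseter 2 read 6.1, against 3.3 to 5 on the limb arrays. Among the 52 probe sets with a signal so far above the rest in masseter 1 were 39 named genes, 13 of them from the salivary list, and both Kcnn4 probe sets were the only 2 with a channel symbol. That criterion was chosen after the values were seen. With the mean log2 signal of the list as a covariate, in a fit without the block, the difference of the brighter Kcnn4 probe set was 0.24 (adjusted p = 0.949). That covariate is itself highest in masseter 1, so the fit cannot separate the list from that array. Leaving out masseter 1 gave 0.22. Of 7 erythroid genes only Alas2 was tested, at 191.4 to 210.4 on the masseter arrays and 100.3 to 138.9 on the limb arrays. Alas2 did not pass (0.74 ± 0.19, adjusted p = 0.124). Of 12 immune genes 7 were tested and 0 passed, with a median difference of -0.007. The part of salivary tissue, blood or immune cells in the Kcnn4 values was not tested.

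**Figure D3:**
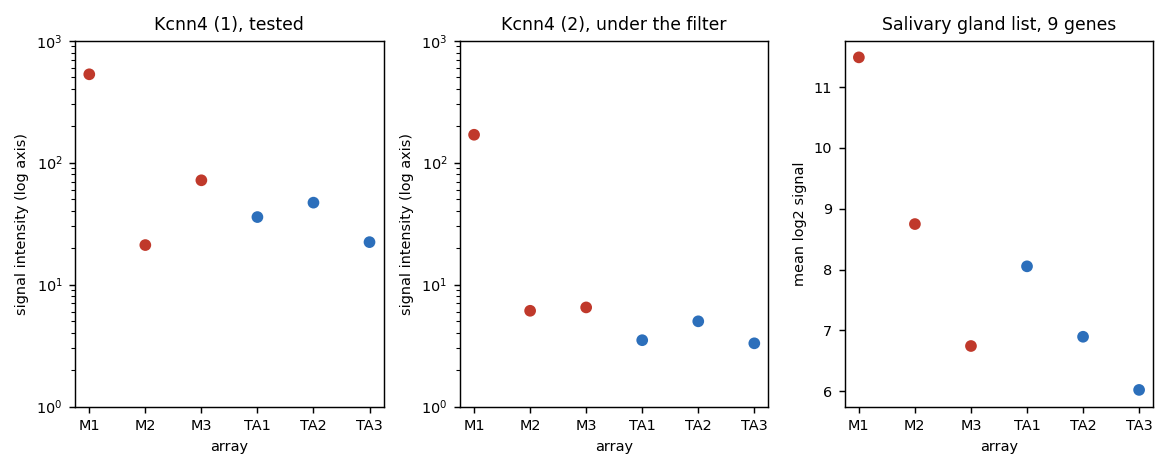
Signal of the 2 Kcnn4 probe sets (left and middle, log axes) and mean log2 signal of 9 salivary gland genes (right) on masseter (M1 to M3, red) and tibialis anterior arrays (TA1 to TA3, blue). Kcnn4 reads 530.6 and 169.4 in M1, where the salivary list is also highest at 11.49.

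None of the remaining calcium-activated channel genes passed. Kcnma1, the pore of the large-conductance (BK) channel, read 54.4, 41.6 and 61.8 in the masseter and 40, 37.5 and 44 in the tibialis anterior, higher in each pair (0.36 ± 0.31, adjusted p = 0.691). Kcnmb1, the BK beta subunit typical of smooth muscle, was higher on every masseter array, at 46.3, 31 and 54.1 against 28.3, 23 and 14.4. Its difference of 1.02 ± 0.48 did not pass (adjusted p = 0.428) and shrank to 0.66 when 16 was added to each signal before the log and to 0.57 without pair 3. Its signals lie near the filter level of 28.6. Every limb array read under the member limit on mean signal, so this probe set was a member only through its masseter signals. The lack of overlap is therefore not independent of the member rule. Another Kcnmb1 probe set, with a mean signal of 25.5, fell below that limit and was not tested. The smooth muscle and pericyte list, with 10 of 12 genes tested, 0 called and none of those tested at 0, had a median difference of -0.01. Its summed signal, to which its brightest genes add most, was 8253.5 to 8672.3 in the masseter and 8826.1 to 9724 in the tibialis anterior, while its mean log2 signal was 8.30 to 8.46 and 8.28 to 8.54. Among its genes, Acta2 (-0.47), Rgs5 (-0.44), Tagln (-0.35), Notch3 (-0.11) and Pdgfrb (-0.09) were below 0. Smtn (0.88), Des (0.36), Cnn1 (0.13), Cspg4 (0.07) and Myh11 (0.07) were above. Kcnn2, a small-conductance channel, read 64.6, 70.1 and 85.3 against 50, 61.1 and 61.1, again without overlap (0.35 ± 0.24, adjusted p = 0.612). The 2 probe sets of its relative Kcnn1 gave -0.31 ± 0.31 and 0.17 ± 0.23. Kcnmb4, a BK beta subunit best known from neurons, ranged from 7.2 to 87 among the masseter arrays alone.

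The Clcn genes supplied 10 members, and 4 of the 5 probe sets with an unadjusted p under 0.05 were theirs. Over all probe sets tested 13.1% had such a p, and over the members 11.9%. All 4 of those differences were above 0. They belong to Clcn1, Clcn3 and Clcn4 only, with Clcn3 counted more than once, and other probe sets of Clcn3 and Clcn4 did not reach that p. The family was not tested as a set. Clcn1, the chloride channel of the fibre membrane, read 66, 93.3 and 37.6 in the masseter and 31, 39.2 and 35.1 in the tibialis anterior. Masseter 1 and 2 were above the limb muscle, while masseter 3 fell within its range. The difference of 0.81 ± 0.35, with an interval of 0.01 to 1.61, did not pass (adjusted p = 0.375), and this single probe set, with a mean signal of 50.4, was dim.

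Clcn3, an exchanger of endosomes and synaptic vesicles, had 4 probe sets, all with a difference above 0. The brightest read 264.8, 425.8 and 372.7 in the masseter and 221.7, 276.9 and 197.8 in the tibialis anterior. The masseter was higher in each pair, and the groups overlapped only through masseter 1 and tibialis anterior 2. Its difference was 0.60 ± 0.18 (adjusted p = 0.204), with an interval of 0.18 to 1.02. The third by mean signal, of a design that can share probes with other transcripts, read 238.4, 319.8 and 215.3 against 168.9, 265.1 and 110.7. Its difference was 0.58 ± 0.19 (adjusted p = 0.246), and 0.26 without tibialis anterior 3. The second by mean signal, at 211.5, 301.9 and 266.1 against 178.1, 343.1 and 218.5, gave 0.12 ± 0.18 and turned to -0.09 without tibialis anterior 1. The fourth was dim and gave 0.81 ± 0.47, which was 0.064 without tibialis anterior 2, at a signal of 10.6. Since these probe sets read 1 gene in the same samples, they are not separate evidence.

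Clcn4, a close relative of Clcn3, showed the same split between probe sets. One read 410.9, 349.3 and 391.5 in the masseter and 292.1, 267.9 and 301 in the tibialis anterior, with no overlap and a difference of 0.42 ± 0.15 (adjusted p = 0.293). The other read 244.4, 293.6 and 305.6 against 300.5, 264.1 and 283, a difference of -0.01 ± 0.17. Clcn5, the exchanger mutated in Dent disease of the kidney, gave -0.47 ± 0.27 and -0.07 ± 0.25. Clcn7, of lysosomes and the bone-resorbing osteoclast, read 73, 75.9 and 102.1 against 114.7, 97.2 and 57.2 (-0.06 ± 0.31).

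**Figure D4:**
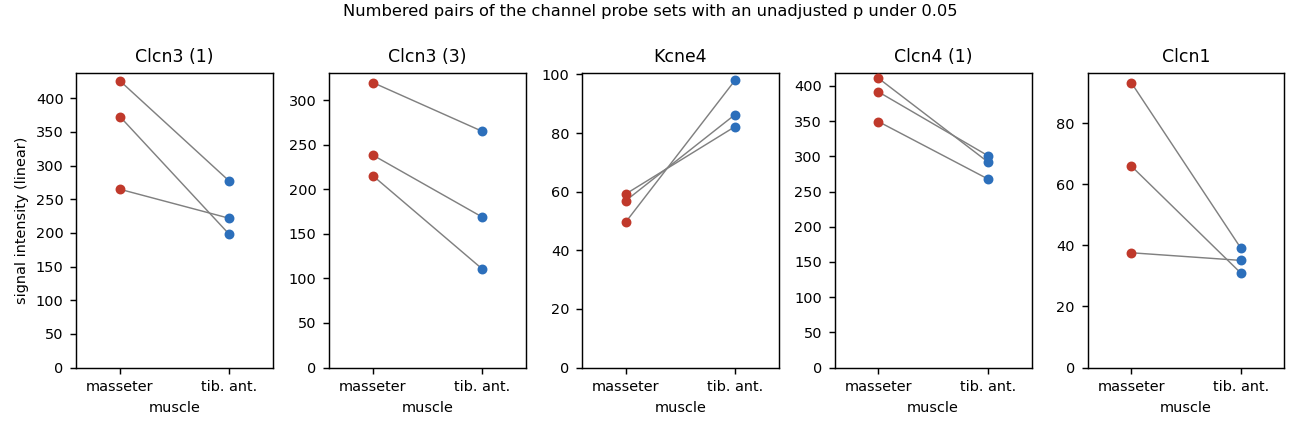
Signal (linear axis from 0) in masseter (red) and tibialis anterior (blue) for the 5 channel probe sets with an unadjusted p under 0.05; lines join samples of the same number, and a number in brackets orders the probe sets of a gene by mean signal. The 3 lines of each panel slope the same way, downward for Clcn3, Clcn4 and Clcn1 and upward for Kcne4, and no panel passes after adjustment.

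No probe set of a voltage-gated sodium channel reached the limit. The pore subunits were represented by 8 genes below it, the highest being Scn11a with a mean signal of 29.2, and the 1 beta subunit gene measured, Scn3b, reached 16.4. Scn4a, which encodes the main sodium channel of adult muscle fibres, is not analysed here. The epithelial sodium channel genes Scnn1a and Scnn1b were members by mean signal but fell under the filter. Scnn1a read 17.5, 27.6 and 6.2 in the masseter and 44.7, 32.7 and 75.2 in the tibialis anterior, with no overlap. Every masseter array read under the member limit, so Scnn1a was a member only through its tibialis anterior signals. The lack of overlap is therefore not independent of the member rule. Without the filter the difference of Scnn1a was -1.73 ± 0.68 (adjusted p = 0.443), a value between signals close to background. Scnn1b gave -0.80 ± 0.68 in that fit (adjusted p = 0.786). Scnm1, the splicing protein, read 147.1, 103.9 and 215.6 against 160.8, 113.5 and 154.9 (0.07 ± 0.20, adjusted p = 0.922).

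How firmly a lack of difference can be stated depended on brightness. Among 13 tested members with a mean signal of 100 or more the median SE was 0.18, and 8 of their intervals lay within a 2-fold difference in both directions. Among 17 members under 50 the median SE was 0.45, and 3 intervals did. In all, 18 of 42 intervals excluded a 2-fold difference and 24 did not. The median log2 signal of the members was 5.98 against 6.78 over all tested, and their median SE was 0.31 against 0.22. The smallest difference called among all probe sets was 0.68 in size, and 3 members (7.14%) differed by more than 1, against 3.3% of all tested. Of the 6 genes with several tested probe sets, 3 (Clcn4, Kcnj6 and Kcnn1) had probe sets of opposite sign.

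**Figure D5:**
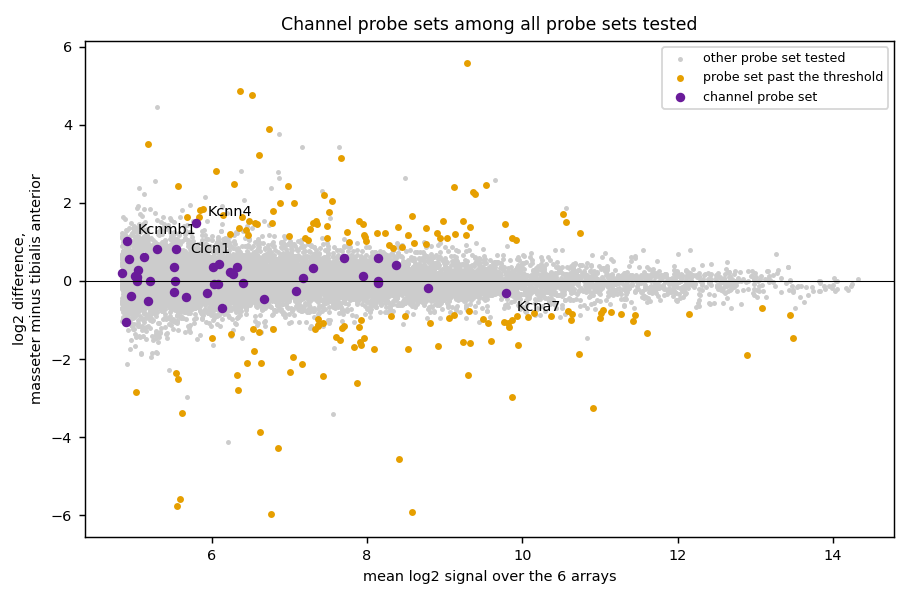
Log2 difference (masseter minus tibialis anterior) against mean log2 signal for all 13576 probe sets tested (grey), the 160 past the threshold (orange) and the 42 channel probe sets (purple). The channel probe sets lie mostly at the dim end, and none is orange; the labelled Kcnn4 point, at 1.47, is the highest of them.

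Genes that work beside these channels were read from a list of pumps, calcium channels, anchors and receptors. Of 44 such genes 31 were tested, and 0 passed as higher and 0 as lower in the masseter, with a median difference of -0.12. Since 1.18% of all probe sets tested passed, a count of 0 among 31 does not set these genes apart. Cacna1s, the voltage sensor of the transverse tubule, read 320.6, 371.1 and 323.6 in the masseter and 449.7, 526.9 and 451.5 in the tibialis anterior (-0.49 ± 0.15, adjusted p = 0.2005). The gamma subunit gene of that channel, Cacng1, had the opposite sign, at 1349.9, 1258.9 and 1445.2 against 1057.2, 986.1 and 755.1 (0.55 ± 0.16, adjusted p = 0.191). In both, the arrays of the 2 muscles lay apart, as they did for 17.8% of all probe sets tested. Atp1b2, a beta subunit of the sodium-potassium pump, was at 304.4, 362.8 and 395.1 against 473.4, 520.9 and 477.4 (-0.48 ± 0.16, adjusted p = 0.239). Abcc9, the sulphonylurea receptor that pairs with Kcnj8 and Kcnj11, had a difference of -0.23 ± 0.20. The lowest adjusted p of the list was that of Chrnb1, the beta subunit of the acetylcholine receptor at the neuromuscular junction, at 90.9, 86.6 and 192.6 against 235.9, 208.4 and 270.6 (-1.04 ± 0.22, adjusted p = 0.0775). It passed without pair 3 (-1.32, adjusted p = 0.0367) and without masseter 3 (-1.42, adjusted p = 0.0205).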

How the data were processed

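For each probe set the authors deposited a linear intensity on every array. MAS5 and GCOS are named in the submitters' processing notes, without settings. No detection calls entered the work. The 2% trimmed mean was 149.6 to 150 on all 6 arrays, so no scaling was added. Probe sets were named from the platform annotation, checked by gene identifier. Signals under 1 were set to 1 and taken to log2. Probe sets with a mean log2 signal under the 40th percentile of non-control probe sets (4.84, a signal of 28.6) were left out, which kept 13576. The comparison used limma 3.58.1 under R 4.3.3 (eBayes with trend, two-sided, Benjamini-Hochberg), with the replicate number as a block because the design text speaks of paired comparisons. The p-values measure the spread between these samples, which may be technical. The procedure was also run on simulated data, with effects given to 50 probe sets at each size. At the threshold limma recovered 7 of 50 effects of log2 size 1, 26 of size 2, 40 of size 3 and 35 of size 4. Most simulated 2-fold differences were thus missed. The effects were placed on random tested probe sets, not at the signal levels of the members. The noise of each probe set was its own residual spread in these 6 arrays, a rough estimate. The counts therefore do not give the power for the channel probe sets.

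Named members were those past the threshold, the 6 greatest differences in each direction, the 6 brightest and a list of 22 muscle channel genes; other members were chosen after their values were seen. Members and lists were chosen with earlier results of these data known. Alternatives changed the block, the prior, the normalization, the offset, the filter, the test, the member limit, the probe set per gene and the arrays included.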

Additional observations from a re-analysis of the deposited data

How the results depend on the processing

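No channel probe set was called under any alternative except the brighter Kcnn4 probe set without pair 2, so the counts with arrays or pairs left out ran from 0 to 1 (higher) and stayed at 0 (lower). The count over all probe sets moved from 160 to 13 with eBayes without trend, 66 with the salivary covariate and no block, 34 with paired SAM, and 45 to 173 with arrays or pairs left out. The excitability partners had 0 to 1 lower and 0 higher with arrays or pairs left out. Without the replicate block 138 probe sets passed, 0 of them channels. The deviations of same-numbered samples correlated by 0.04, 0.15 and 0.10 in pairs 1, 2 and 3, so the numbers pair the samples weakly, if at all. The members' median difference was 0.04 to 0.25 with arrays or pairs left out. Of 404 values of named members, 376 kept direction and call and 27 turned sign, none of these called. With the salivary covariate and no block, Kcnc1 became 0.029, the Kcnc4 probe sets 0.37 and 0.23, and the dimmer Clcn4 probe set 0.091, all with the sign turned. That fit also moved Kcnn4 from 1.47 to 0.24, Kcna5 from 0.32 to 0.88, Kcnj12 from 0.35 to 0.80, Kcnh1 from -0.52 to -1.11, the brighter Clcn5 probe set from -0.47 to -0.085 and 1 Clcn3 probe set from 0.12 to 0.30. With arrays or pairs left out, ranges that cross 0 were -0.66 to 0.42 (Kcnc1), -0.74 to 0.39 and -0.19 to 0.16 (Kcnc4), -0.094 to 0.13 (Clcn4), -0.50 to 0.24 (Clcn7), -0.92 to 0.16 (Kcnh1) and -0.091 to 0.38 (Clcn3). The cause was not tested. Signals near background and 3 arrays per muscle limit the dim members.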
